A study of Mus musculus with 6 samples.

Results

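The nuclear genes that encode the mitochondrial respiratory chain were followed on 6 expression arrays of mouse fibroblasts. Genes were chosen by symbol, as the Nduf subunits of complex I, the Sdh subunits of complex II, the Uqcr subunits of complex III, the Cox4 to Cox8 subunits of complex IV and the Atp5 subunits of complex V. This gave 81 of the 18193 genes that a probe set names alone, on 164 probe sets. Complex I had 35 of these genes, complex II had 4, complex III had 8, and complexes IV and V had 17 each. The cells were NIH3T3, an immortalised mouse embryonic fibroblast line, and all 6 samples came from clone M, a single clone with several insertions of lacO, the operator DNA that the lac repressor binds. In 3 samples the insertion lay at the nuclear periphery (tethered), and in the other 3 it lay centrally in the nucleus (untethered). Both groups were grown in serum-containing DMEM, and the series asked how genomic regions brought to the inner nuclear membrane are transcribed. Each group has samples numbered 1, 2 and 3, and the labels neither say what a number stands for nor whether the samples came from separate cultures. P-values therefore measure only the spread between these samples, which may be technical.

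The respiratory chain passes electrons from NADH through complex I, and from succinate through complex II, to ubiquinone, then through complex III and cytochrome c to complex IV, where oxygen is reduced. Complexes I, III and IV pump protons across the inner mitochondrial membrane, and complex V, the ATP synthase, uses that gradient to make ATP. Most subunits are encoded in the nucleus, imported and assembled with a few subunits made from mitochondrial DNA. The factors NRF1, GABP, YY1 and ESRRA are known regulators of these nuclear genes.

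Values are log2 of the deposited intensity of the brightest probe set of each gene, and a value says how bright that probe set was, not how one gene's transcript compares with another's. Median intensities of the 6 arrays ran from 482.5 to 490.8. The 95th percentile ranged more widely, from 3407 to 3887 on the tethered arrays and from 3377 to 3926 on the untethered arrays. All 10 fibroblast markers were bright enough to test, among them Vim and Col1a2. Of the markers of other cell types, 3 of 6 for macrophages, 1 of 5 for epithelium, 2 of 5 for endothelium, 4 of 6 for muscle and 1 of 4 for adipocytes passed the same brightness filter. Of the 4 adipocyte markers, only 2 had a probe set that names them alone. That filter kept probe sets with a mean log2 intensity above 8.93, the median of all probe sets. It kept 74 of the 81 respiratory chain genes: 33 in complex I, 4 in complex II, 8 in complex III, 12 in complex IV and 17 in complex V. Ndufa4l2, Ndufb4, Cox6b2, Cox7a1, Cox7b2, Cox7c and Cox8b were too dim to test. On 15 of the 74 genes the probe set is of a type that may also bind transcripts of related genes.

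No respiratory chain gene was called between tethered and untethered cells. Of the 74 genes, 0 passed an adjusted p of 0.05 in limma's test, where the share called over all genes tested was 0% and the smallest adjusted p was 0.9994. At an unadjusted p under 0.05, 0 of the 74 stood out, against 2.44% of all genes. In 0 of the 74 did the 3 tethered arrays lie wholly below the 3 untethered ones, and in 0 wholly above, against backgrounds of 4.1% and 4.3%. The log2 fold changes were small, from -0.37 for Ndufa5 to 0.06 for Sdhc. They lay below 0 for 66 of the 74 genes, against 58.8% of all genes, and their median was -0.08 against -0.02 for all genes. Among the 1398 genes brighter than the lower quartile of the 74 (bright genes), 1007 lay below 0 and the median was -0.05. That cut was chosen after the values were seen. The median was -0.11 in complex I, -0.05 in complex II, -0.05 in complex III, -0.04 in complex IV and -0.08 in complex V. Without the tethered array numbered 1 the median over the 74 genes was 0.03, and without the untethered array numbered 1 it was -0.20. Each omission leaves an array numbered 1 in only 1 of the groups, and both of those arrays were low. Neither value is therefore a balanced comparison, and the side of 0 changed with the arrays kept.

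**Figure D1:**
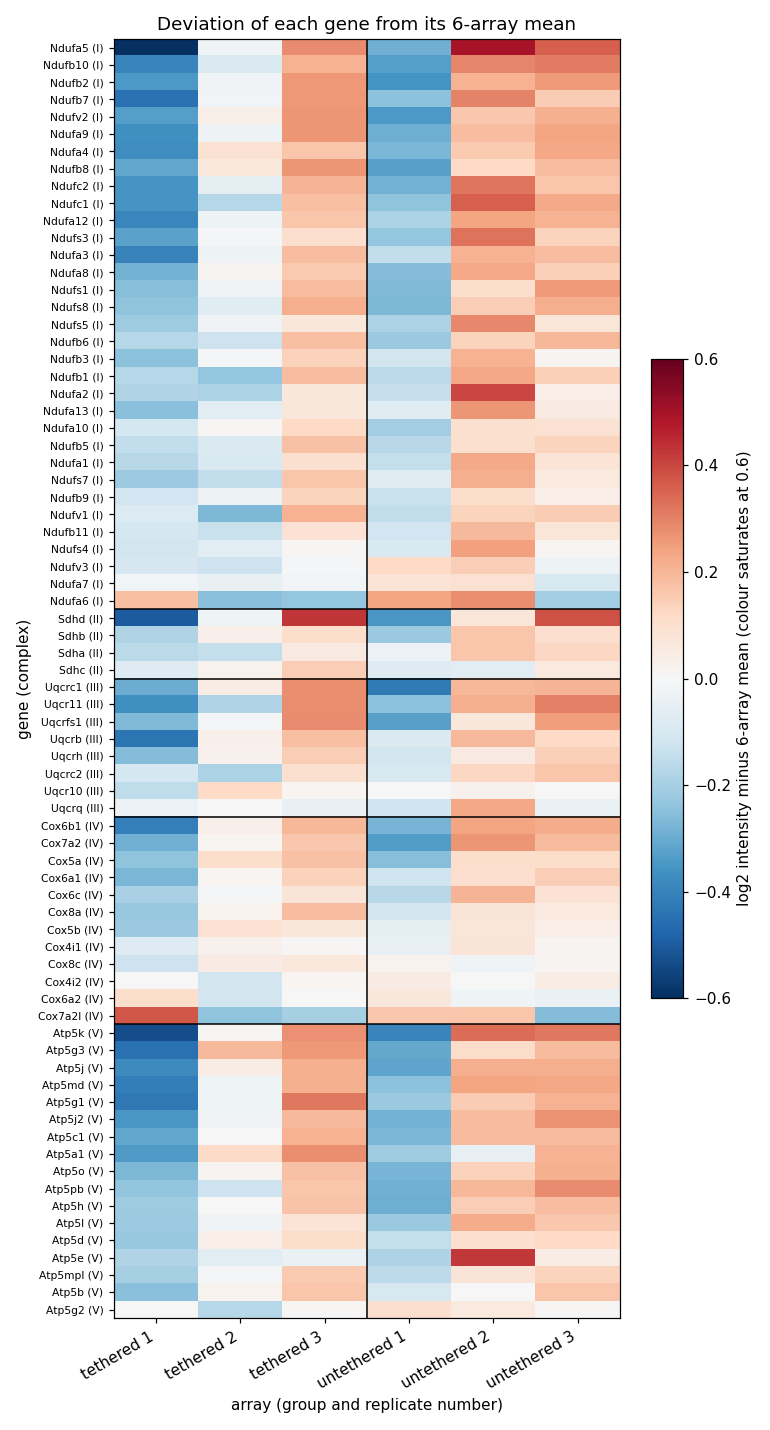
Deviation of the log2 intensity of each of the 74 tested genes from its mean over 6 arrays, 1 row per gene and 1 column per array, tethered arrays left of untethered ones. Blue is below and red above the gene's mean, and within each complex the genes run from the most negative to the most positive difference of arrays numbered 1 from the rest. The columns of both arrays numbered 1 are blue for most rows, and Ndufa6 and Cox7a2l are among those that are not.

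Among the complex I genes, 31 of 33 had fold changes below 0, against 58.8% of all genes and 1007 of the 1398 bright genes. Ndufv3, an accessory subunit of the NADH-oxidising module, had the smallest p of the complex I genes. It had log2 intensities of 11.89, 11.87 and 11.98 on tethered arrays 1, 2 and 3, against 12.11, 12.14 and 11.96 on the untethered arrays. The tethered arrays lay below untethered arrays 1 and 2 and overlapped the third, with a log2 fold change of -0.16 ± 0.076 (SE) and an unadjusted p of 0.0855 in limma's test. Ndufa13, also known as GRIM-19, averaged 12.30 ± 0.16 in tethered and 12.47 ± 0.17 in untethered cells (SD, n = 3 each), a log2 fold change of -0.17. Ndufa5, a subunit of the peripheral arm, had the most negative fold change of complex I, -0.37, with a standard error of 0.336. Its values were 10.09, 10.88 and 11.19 on the tethered arrays and 10.62, 11.40 and 11.27 on the untethered arrays. The spread among its tethered arrays alone exceeded the difference between the group means.

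In complex II, which also belongs to the citrate cycle, Sdha carries the flavin, Sdhb the iron-sulfur clusters, and Sdhc and Sdhd anchor the enzyme in the membrane. Sdha had 11.42, 11.44 and 11.63 on the tethered arrays, against 11.54, 11.74 and 11.70 on the untethered arrays. The tethered values were mostly lower but overlapped, with a log2 fold change of -0.17 ± 0.093 (SE) and an unadjusted p of 0.120 in limma's test. Sdhb, Sdhc and Sdhd had fold changes of -0.03, 0.06 and -0.07, each within its standard error. In complex III, the core subunit Uqcrc2 had a log2 fold change of -0.13 and the small subunit Uqcrb -0.15. The Rieske iron-sulfur protein Uqcrfs1 had 0.0055 and the core subunit Uqcrc1 0.01.

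In complex IV the fold changes ran from -0.12 for Cox6b1, which lies on the intermembrane side, to 0.02 for Cox5a. Cox4i1, the common form of the subunit COX4, had 13.63, 13.73 and 13.71 on the tethered arrays, against 13.65, 13.78 and 13.72 on the untethered arrays. Its 6 values stayed within 0.15 of each other, the smallest range of the 74 genes. In complex V the catalytic β subunit Atp5b had a fold change of -0.04 and the α subunit Atp5a1 0.04, both smaller than their standard errors. Atp5e, the small ε subunit of the central stalk, had the most negative value of complex V, -0.19 ± 0.159 (SE). It had 10.72, 10.83 and 10.86 on the tethered arrays, against 10.72, 11.33 and 10.95 on the untethered arrays. Untethered array 2 alone stood high.

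Set against the untethered array of the same number, the tethered arrays gave different values for each number. Between the arrays numbered 1, the median difference over the 74 genes, tethered minus untethered, was -0.05, with 49 below 0. Between the arrays numbered 2 it was -0.21, with 67 below 0, and between those numbered 3 it was 0.0064, with 33 below 0. Over all genes tested the medians were 0.0059, -0.06 and -0.0044 for numbers 1, 2 and 3, with 5718, 7254 and 6105 of 11846 below 0. Over the 1398 bright genes they were -0.03, -0.13 and -0.0033, with 804, 1008 and 730 below 0. All 33 complex I genes were lower on tethered array 2 than on untethered array 2, with a median of -0.27. For the same pair of arrays the medians were -0.12 in complex II, -0.16 in complex III, -0.09 in complex IV and -0.18 in complex V. Untethered array 2 was the brightest of the 6 for 32 of the 74 genes, 20 of them in complex I. Over all genes it was the brightest for 2712 of 11846, more than any other array. That array also had the lowest 5' relative to 3' brightness for the control probe sets of the transferrin receptor, a log2 difference of -3.07, against -1.67 on tethered array 2. The 95th percentile of intensity was 3926 on untethered array 2, against 3470 on tethered array 2. The part of this control and of these percentiles in the array-to-array differences was not tested. Each pair is 1 array against 1, so these are values without a test.

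**Figure D2:**
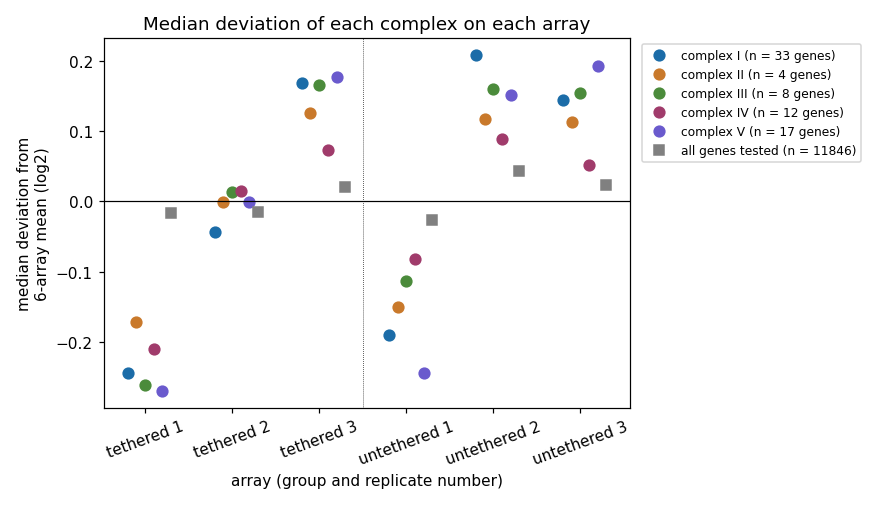
Median deviation from the 6-array mean (log2) on each array, with 1 point for each complex and a grey square for all 11846 genes tested, tethered arrays left of untethered ones. The respiratory chain medians are lowest on the arrays numbered 1, -0.24 on tethered array 1 and -0.19 on untethered array 1 over all 74 genes, and tethered array 2 stays near 0.

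The larger split among the 6 arrays ran by replicate number, and the respiratory chain took part in it. The comparison across numbers was chosen with earlier results of these data known. Its p-values and counts therefore describe the split and are not independent support for it. The arrays numbered 1 were compared with those numbered 2 and 3 with the group as a term in the model, and an F test asked whether the 3 numbers differed. All p-values across the numbers are from this F test. They do not test the difference of number 1 from the others by itself. The log2 difference, number 1 minus the mean of numbers 2 and 3, lay below 0 for 67 of the 74 genes, against 56.9% of all genes. Its median was -0.30, against -0.03 over all genes tested. Both arrays numbered 1, tethered and untethered, lay below all 4 others for 58 of the 74 genes, or 78.4%, against 25% of all genes. They lay above the other 4 for 1 gene, Cox6a2, against 12% of all genes. At an unadjusted p under 0.05 there were 44 of 74 genes (59.5%), against 21.2% of all genes. After adjustment 5.07% of all genes and 172 of the 1398 bright genes were called. Of the 74, 4 were called, all lower on the arrays numbered 1. That share was close to the share of all genes and below that of bright genes. Those calls rested on few arrays: 0 genes were called without tethered array 1, tethered array 3 or untethered array 3, and 1 without untethered array 1. Without tethered array 2 there were 29, and without untethered array 2 there were 22. Over all probe sets tested, 2979 of 22518 were called without tethered array 2.

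Bright genes as a whole also tended to be lower on the arrays numbered 1. Among the 1398 genes whose mean intensity exceeded the lower quartile of the 74, a cut chosen after the values were seen, the median difference was -0.18. Both arrays numbered 1 lay below the other 4 in 48.8% of them, and 43.2% had an unadjusted p under 0.05. The deposited values of the arrays numbered 1 also had the lowest 95th percentiles, 3407 for the tethered and 3377 for the untethered array. Tethered array 2 was close to them at 3470, while untethered array 2 was at 3926, so this percentile did not split the arrays by number alone. When all arrays were given one common distribution by quantile normalization, the median of the 74 genes was -0.17, with 60 below 0. Both arrays numbered 1 were then below the others for 44 of the 74 genes and 18.5% of all genes, and the median of all genes was 0.03. In the values without quantile normalization, both arrays numbered 1 also lay below the others for 6 of the 10 fibroblast markers. The shares in those values were 25% of all genes and 48.8% of the 1398 bright genes. The median deviation of these 10 markers was -0.24, 0.10 and 0.11 on tethered arrays 1, 2 and 3, and -0.13, 0.18 and 0.13 on the untethered arrays. One of them, the growth factor receptor gene Pdgfra, was called across the numbers, where 5.07% of all genes were called. Its log2 difference was -1.20, with an adjusted p of 0.0428 in limma's F test. Of the 10 markers, 7 had differences below 0 and 3 above: Pdgfrb at 0.35, Fn1 at 0.06 and P4hb at 0.03. The part of these markers in the respiratory chain's difference was not tested.

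**Figure D3:**
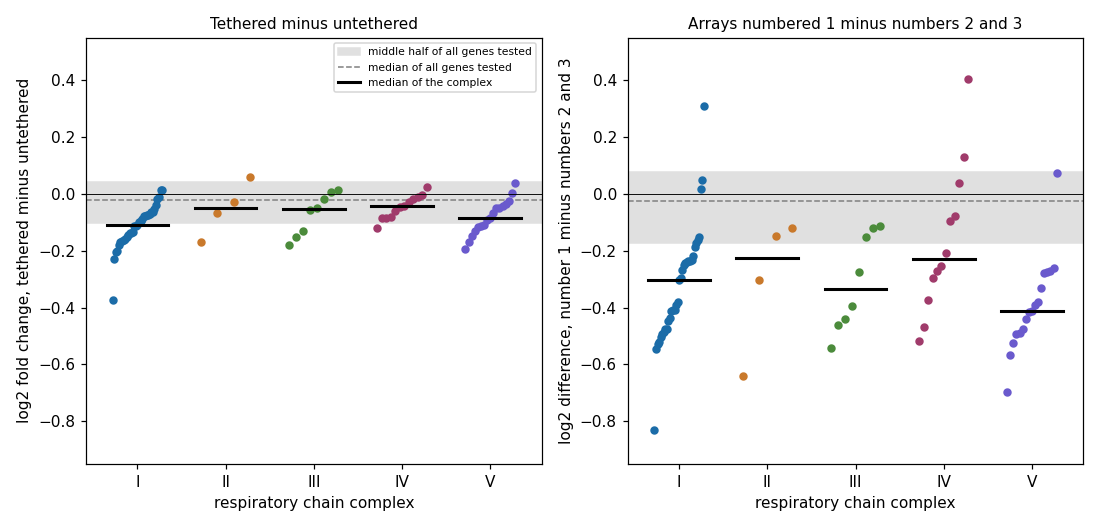
Log2 difference of each tested gene by complex, with tethered minus untethered on the left and arrays numbered 1 minus numbers 2 and 3 on the right, on the same scale. Each point is a gene, the black bar the median of the complex, the grey band the interquartile range of all genes tested and the dashed line their median. On the right the medians of complexes I to V are -0.30, -0.23, -0.33, -0.23 and -0.41.

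The called genes were Atp5k, Sdhd, Ndufa4 and Atp5j. Atp5k encodes subunit e of the ATP synthase, a small membrane subunit that takes part in pairing the enzyme into dimers. It had log2 intensities of 11.64, 12.19 and 12.45 on tethered arrays 1, 2 and 3, against 11.78, 12.51 and 12.49 on the untethered arrays. Both arrays numbered 1 were the lowest, and the groups overlapped. The difference, number 1 minus 2 and 3, was -0.70 ± 0.086 (SE), with an adjusted p of 0.0378 in limma's F test. Sdhd, a membrane anchor of complex II, had 11.03, 11.51 and 11.96 on the tethered arrays, against 11.18, 11.60 and 11.91 on the untethered arrays. In both groups number 1 was low, number 2 intermediate and number 3 high. The difference, number 1 minus 2 and 3, was -0.64 ± 0.077 (SE), and the F test over the 3 numbers gave an adjusted p of 0.0289. Ndufa4, first assigned to complex I and now regarded as a subunit of complex IV, had 12.49, 12.96 and 13.04 on the tethered arrays, against 12.59, 13.03 and 13.10 on the untethered arrays. Its 4 arrays numbered 2 and 3 lay close together above both arrays numbered 1, a difference of -0.49 ± 0.066 (SE). The F test gave an adjusted p of 0.0455. Atp5j, coupling factor 6 of the ATP synthase stator, had 12.07, 12.50 and 12.67 on the tethered arrays, against 12.14, 12.68 and 12.68 on the untethered arrays. It differed by -0.52 ± 0.073 (SE), and the F test gave an adjusted p of 0.0485. Under quantile normalization Ndufa4 and Atp5j were not called.

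The promoters of the called genes are shown because they carry different combinations of known respiratory chain motifs. The sequences are from RefSeq, assembly GRCm38.p6, and give the 100 bases before the annotated start of transcription, 5' to 3' on the strand of the gene. Capitals mark matches on either strand to GCATGCGC, the core of the NRF1 motif, CCGGAAG, an ETS motif that GABP binds, or AAGATGGC, the YY1 motif.
Atp5k, chr5:108434400-108434499, minus strand: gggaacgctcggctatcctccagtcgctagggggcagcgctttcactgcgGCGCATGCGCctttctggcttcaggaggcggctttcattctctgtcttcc
Atp5j, chr16:84834977-84835076, minus strand: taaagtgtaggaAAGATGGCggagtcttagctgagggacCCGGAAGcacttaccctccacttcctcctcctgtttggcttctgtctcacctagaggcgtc
Sdhd, chr9:50603850-50603949, minus strand: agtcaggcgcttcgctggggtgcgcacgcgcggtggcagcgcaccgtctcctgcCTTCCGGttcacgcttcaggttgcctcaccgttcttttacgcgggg
Ndufa4, chr6:11907451-11907550, minus strand: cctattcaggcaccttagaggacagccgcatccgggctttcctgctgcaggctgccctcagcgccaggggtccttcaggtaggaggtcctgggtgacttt
The NRF1 core in the Atp5k window is matched on both strands at overlapping positions, which gives a run of capitals longer than the motif. The Atp5j window holds a YY1 motif and an ETS motif, the Sdhd window an ETS motif on the opposite strand, and the Ndufa4 window none of these letters. Atp5j has another annotated start, whose window at chr16:84835626-84835725 holds none of these motifs and is not shown.

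Over the whole set, 71 promoters of 66 of the 81 genes were in the RefSeq table, each 300 bases long, from 250 before to 50 after the start. The NRF1 core was found in 9 of the 71 (12.7%), against 2.71% of all 32851 mouse promoters of the same length. CCGGAAG was found in 17 (23.9%), against 8.86%. AAGATGGC was found in 9 (12.7%), against 2.75%, with 6 of these in the 33 promoters of complex I and 3 in the 18 of complex V. AAGGTCA, the site that ESRRA binds, was found in 8 (11.3%), against 4.72%. These are matches of letters on either strand, and some genes have more than 1 promoter in the table.

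**Figure D4:**
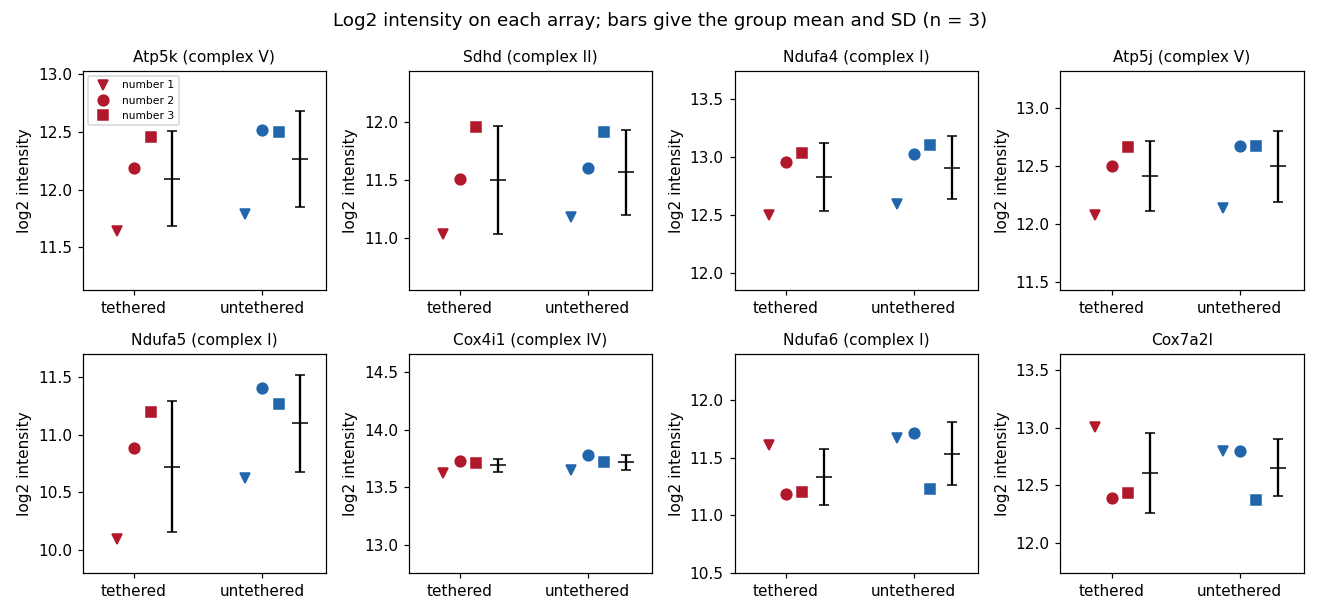
Log2 intensity of 8 genes on each array, tethered in red left of untethered in blue, with a triangle, circle and square for replicate numbers 1, 2 and 3 and a bar for the group mean and SD over 3 arrays. The triangles are lowest for Atp5k, Sdhd, Ndufa4, Atp5j and Ndufa5, all 6 points nearly coincide for Cox4i1, and 3 arrays stand high for Ndufa6 and Cox7a2l.

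In complex V, 16 of 17 genes were lower on both arrays numbered 1 than on the other 4, and 15 of 17 had an unadjusted p under 0.05. The shares were 25% and 21.2% over all genes, and 48.8% and 43.2% over the 1398 bright genes. The median difference was -0.41. The members of the catalytic head were Atp5a1 at -0.41 and Atp5b at -0.26, and the γ, δ and ε subunits of the rotating stalk, Atp5c1, Atp5d and Atp5e, were at -0.44, -0.28 and -0.27. The stator subunits Atp5pb, Atp5h and Atp5o were at -0.39, -0.38 and -0.41. The membrane subunits Atp5j2, Atp5l, Atp5md and Atp5mpl were at -0.47, -0.33, -0.49 and -0.27. The exception was Atp5g2, at 0.07, or 0.0297 without tethered replicate 2 and 0.12 without untethered replicate 2. Atp5g1, Atp5g2 and Atp5g3 encode the same mature c subunit of the rotor ring with different import sequences. Atp5g3 had 13.14, 13.78 and 13.85 on the tethered arrays, against 13.28, 13.70 and 13.78 on the untethered arrays, a difference across numbers of -0.57. Atp5g2 had 12.64, 12.48 and 12.65 on the tethered arrays, against 12.75, 12.71 and 12.65 on the untethered arrays. Its 6 values showed no low arrays numbered 1, unlike those of Atp5g3 and of Atp5g1, which was at -0.49. The difference between these genes was not tested.

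In complex I, 25 of 33 genes were lower on both arrays numbered 1, against 25% of all genes and 48.8% of bright genes. Of the 33, 17 had an unadjusted p under 0.05, against 21.2% of all genes and 43.2% of bright genes. Ndufa5 had the most negative difference of the 74 genes, -0.83 ± 0.121 (SE), with an adjusted p of 0.0531 in limma's F test, just outside the threshold. Ndufb10 and Ndufb2, subunits of the membrane arm, were at -0.54 and -0.53. The membrane arm subunit Ndufb8 was at -0.48 with an adjusted p of 0.0517. Of the core subunits of the peripheral arm, Ndufv2 was at -0.50, with 11.67, 12.04 and 12.26 on the tethered arrays, against 11.66, 12.16 and 12.21 on the untethered arrays. Ndufs1, Ndufs3, Ndufs8 and Ndufs7 were at -0.39, -0.41, -0.38 and -0.22, and Ndufv1, which binds NADH and the flavin, at -0.17. Leaving out 1 array moved Ndufv1 between -0.29 (without tethered replicate 1) and -0.0546 (without untethered replicate 1). It moved Ndufs7 between -0.31 (without untethered replicate 3) and -0.13 (without tethered replicate 3). Ndufs4, an accessory subunit needed for a stable NADH-oxidising module, was at -0.15. Ndufv3, Ndufa7 and Ndufa6 were at 0.02, 0.05 and 0.31.

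In complex II, Sdhd was followed by Sdhb at -0.30, Sdha at -0.15 and Sdhc at -0.12. Sdha was at -0.0969 without untethered replicate 2, and Sdhc at -0.074 without tethered replicate 1. Sdhb had 12.03, 12.24 and 12.32 on the tethered arrays, against 11.99, 12.38 and 12.31 on the untethered arrays. Both arrays numbered 1 lay below the other 4, with an adjusted p of 0.162. Sdhc had 11.65, 11.75 and 11.88 on the tethered arrays, against 11.65, 11.66 and 11.79 on the untethered arrays. Under quantile normalization Sdhc was at 0.04, so its direction across the numbers depended on the scaling. In complex III all 8 genes had differences below 0. Uqcrc1, a core subunit, was at -0.54 with an adjusted p of 0.0649, the hinge protein Uqcrh at -0.27, Uqcr11 at -0.46 and the Rieske protein Uqcrfs1 at -0.44. The other core subunit, Uqcrc2, was at -0.15 and Uqcrq at -0.11.

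Complex IV had the smallest share of genes below 0 across the numbers of the 5 complexes. Of its 12 tested genes, 9 had differences below 0, with a median of -0.23. Without Cox7a2l, described below, 9 of 11 did, with a median of -0.25. Ndufa4 was counted with complex I by its symbol. For 8 of the 12 the arrays numbered 1 lay below the others, against 25% of all genes and 48.8% of bright genes. An unadjusted p under 0.05 was found for 5 of the 12, against 21.2% of all genes and 43.2% of bright genes, so this count was close to that of bright genes. Cox6b1 had 12.57, 13.02 and 13.18 on the tethered arrays, against 12.71, 13.22 and 13.20 on the untethered arrays. Both arrays numbered 1 were low, a difference of -0.52 with an adjusted p of 0.0519 in limma's F test. Cox7a2 was at -0.47, Cox5a at -0.37, Cox6a1 at -0.29, Cox6c at -0.27, Cox8a at -0.25, Cox5b at -0.21 and Cox4i1 at -0.09. The median of complex IV was -0.14 without tethered replicate 1. Some complex IV subunits have forms known from particular tissues. Cox6a2, the heart and skeletal muscle counterpart of Cox6a1, had 11.49, 11.27 and 11.38 on the tethered arrays, against 11.45, 11.36 and 11.34 on the untethered arrays, a difference of 0.13. Cox4i2, the lung counterpart of Cox4i1, was at 0.04, and Cox8c, the testis form of Cox8a, at -0.08. Cox8c was at 0.03 under quantile normalization. Of the muscle marker list, the 4 tested genes Des, Ckm, Myog and Acta1 were at 0.16, 0.13, 0.09 and -0.39. Cox7a1 and Cox8b, the muscle forms, and Cox6b2 and Cox7b2, the testis forms, were too dim to test. The probe set of the common subunit Cox7c was dim as well, between 8.25 and 8.75.

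Ndufa6 and Cox7a2l had the most positive differences across the numbers, with a split of the arrays that Ndufa7 shared. Ndufa6 is a subunit of the peripheral arm of complex I, and Cox7a2l, a relative of the Cox7a subunits, takes part in joining complexes III and IV into supercomplexes. Ndufa6 had 11.61, 11.18 and 11.20 on the tethered arrays, against 11.67, 11.71 and 11.23 on the untethered arrays. Tethered array 1 and untethered arrays 1 and 2 were high and the other 3 were low. Cox7a2l had 13.004, 12.39 and 12.43 on the tethered arrays, against 12.79, 12.79 and 12.37 on the untethered arrays. The same 3 arrays were high, and all 3 of its probe sets showed this order, with differences across numbers of 0.40, 0.45 and 0.52. Ndufa7, an accessory subunit of the peripheral arm, had 12.82, 12.79 and 12.82 on the tethered arrays, against 12.92, 12.93 and 12.74 on the untethered arrays. Its 3 highest arrays were the same, though tethered arrays 1 and 3 were nearly equal. In limma's F test the adjusted p was 0.298 for Ndufa6 and 0.269 for Cox7a2l. Without tethered replicate 1 the Cox7a2l difference was 0.21, and without untethered replicate 1 it was 0.60.

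The same split of the arrays appeared in the transferrin receptor control, one of 3 controls whose 5' probe set minus 3' probe set gives a measure of how complete the labelled RNA was. It was -2.09, -1.67 and -1.55 on tethered arrays 1, 2 and 3, against -2.81, -3.07 and -1.52 on the untethered arrays. The 3 arrays with the lowest values were the 3 on which Ndufa6, Ndufa7 and Cox7a2l were highest. The actin control had the same 3 arrays lowest, at -0.29, -0.10 and -0.12 on the tethered arrays, against -0.31, -0.56 and -0.15 on the untethered arrays. The Gapdh control did not split the arrays in this way: it was 0.10, 0.09 and 0.08 on the tethered arrays, against 0.04, -0.06 and 0.08 on the untethered arrays, with tethered array 1 the highest. The part of these controls in the genes' patterns was not tested. The promoters of these genes are shown for comparison with those of the called genes, with the same motifs in capitals.
Ndufa6, chr15:82354292-82354391, minus strand: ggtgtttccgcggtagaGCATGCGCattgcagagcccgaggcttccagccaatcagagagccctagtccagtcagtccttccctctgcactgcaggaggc
Cox7a2l, chr17:83514334-83514433, minus strand: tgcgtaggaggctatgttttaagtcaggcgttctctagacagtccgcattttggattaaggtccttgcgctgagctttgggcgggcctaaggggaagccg
Ndufa6 holds the NRF1 core that Atp5k also holds, and Cox7a2l has none of the motifs in this window.

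**Figure D5:**
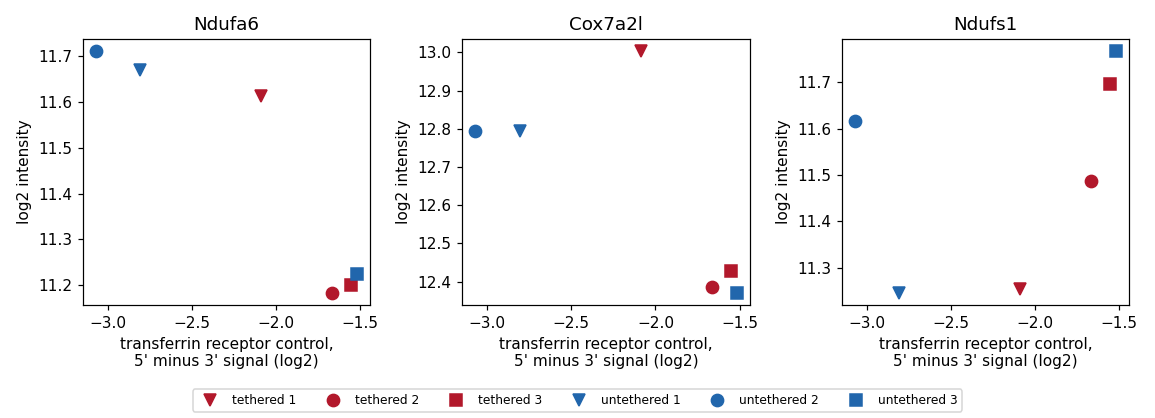
Log2 intensity of Ndufa6, Cox7a2l and, for contrast, Ndufs1 against the log2 difference between 5' and 3' control probe sets of the transferrin receptor on the 6 arrays, tethered in red and untethered in blue, with a symbol for each number. Ndufa6 and Cox7a2l are high on the 3 arrays with control values of -2.09 or lower, while Ndufs1 is low on both arrays numbered 1 and high on untethered array 2.

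Of the 42 genes with several tested probe sets, all probe sets had the same direction across the numbers in 39. The exceptions were Cox8c, Ndufa10 and Uqcrq. Between tethered and untethered cells the directions were shared in 33 of 42.

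Other mitochondrial genes, from lists chosen with earlier results of these data known, also had 0 calls between tethered and untethered cells. Across the numbers, 8 of 76 tested mitochondrial ribosomal protein genes were called, against 5.07% of all genes, all lower on the arrays numbered 1, and the median was -0.27. Mrpl18 had 10.09, 11.19 and 11.57 on the tethered arrays, against 10.37, 11.25 and 11.62 on the untethered arrays, a difference of -1.17 and an adjusted p of 0.0140 in limma's F test. Mrps25 was at -1.13, a larger difference than any of the 74 respiratory chain genes had. Of 15 tested genes of pyruvate dehydrogenase and the citrate cycle, 3 were called, against 5.07% of all genes: Idh3a at -0.75, Ogdh at -0.69 and Dlst at -0.59. Their median was -0.27. Cycs, the cytochrome c that carries electrons between complexes III and IV, was at -0.51 with an adjusted p of 0.0517. Slc25a5, which exchanges ADP and ATP across the inner membrane, was at -0.49 and was called, with an adjusted p of 0.0479.

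Of 41 tested assembly factors of the complexes, 1 was called, Acad9, a complex I assembly factor, at -0.66, a smaller share than the 5.07% of all genes. For 16 of the 41 the arrays numbered 1 lay below the others, against 25% of all genes, and the median was -0.16. Surf1, an assembly factor of complex IV, was at 0.21 with an adjusted p of 0.649. Of 19 regulators and factors of mitochondrial DNA expression, 0 were called across the numbers, close to the 5.07% of all genes. In the same F test 1 of the 19 had an unadjusted p under 0.05, against 21.2% of all genes, and the median difference was -0.03. Nrf1, Gabpa, Yy1 and Esrra, the genes of the factors whose motifs were searched, were at -0.05, -0.12, -0.07 and 0.04, with adjusted p-values between 0.401 and 0.951. Between the groups, Gabpb2, which encodes a GABP β subunit, had 9.97, 9.91 and 10.00 on the tethered arrays, against 10.32, 10.28 and 10.15 on the untethered arrays. All 3 tethered values were below all 3 untethered ones, with a log2 fold change of -0.29, an unadjusted p of 0.00689 and an adjusted p of 0.9994 in limma's test. Such a separation was found for 3 of the 19, against 4.1% of all genes. Gabpb2 was the 1 gene of the 19 with an unadjusted p under 0.05, against 2.44% of all genes. Between the groups, Gabpb1 was at 0.02 and Gabpa at -0.19.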

How the data were processed

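The authors deposited 1 intensity for each probe set and array, on a linear scale. Neither the software that summarised the probes nor the scaling is given in the sources used here, and no detection calls were used. Precision is limited by the number of arrays. The platform annotation gave each probe set its gene, and symbols were then updated to a mouse RefSeq table (GRCm38.p6). The 45101 probe sets included 64 controls, which were left out, 34945 naming a single gene, 932 naming several and 9160 without a name.

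Values were floored at 16 before taking log2, and 22518 probe sets (11846 genes) with a mean above the median of all were tested. The groups were compared with limma 3.58.1 (R 4.3.3, linear model and empirical Bayes, no covariate, 6 arrays), and the replicate numbers with an F test in a model with group as a term. P-values were two-sided, adjusted by the Benjamini-Hochberg method over all probe sets and called under 0.05. Each gene was represented by its brightest probe set. The procedure was tested on simulated data.

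The named genes were, in each complex and for each test, the 4 with the smallest p, together with isoform families, complex II and catalytic subunits, and from each other list up to 3 with the smallest p. Further genes were named after their values were seen, at the ends of a range or as examples. The members, the lists, the rules and the comparison across numbers were chosen with earlier results of these data known. Alternatives were quantile normalization, median centring, no brightness filter, a floor of 64, averaging a gene's probe sets, the replicate number as a block, an unmoderated model and leaving out arrays.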

Additional observations from a re-analysis of the deposited data

How the results depend on the processing

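Between tethered and untethered cells 0 probe sets were called under each alternative run, and the median of the 74 genes ranged from -0.20 without untethered replicate 1 to 0.03 without tethered replicate 1. The same omissions gave -0.21 and -0.02 in complex I, -0.19 and 0.08 in complex II, -0.18 and 0.04 in complex III, and -0.22 and 0.06 in complex V. Complex IV ran from -0.08 without tethered replicate 3 to 0.04 without tethered replicate 1. In all, 536 probe sets had an unadjusted p under 0.05, and 887 did so with the unmoderated model. The replicate numbers were not taken as pairs: the deviations of same-numbered arrays correlated at 0.71, 0.075 and 0.711 for numbers 1, 2 and 3, and tethered array 2 correlated best with untethered array 3. The fit with the replicate block called 0 probe sets: its smallest adjusted p was 0.7401, and it put 1232 at an unadjusted p under 0.05.

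Across the numbers, the 4 respiratory chain genes called became 2 under quantile normalization, 2 under median centring and 0 without the brightness filter. They became 13 when a gene's probe sets were averaged, and the share called over all genes in that fit is not given here. Leaving out 1 array gave 0 to 29. The 1161 probe sets called became 645 without the filter, and leaving out 1 array gave 0 (without tethered or untethered replicate 3) to 2979 (without tethered replicate 2). Under quantile normalization the median of the 74 genes was -0.17, and it was -0.16, -0.0573, -0.175, -0.0617 and -0.21 in complexes I to V. Leaving out 1 array gave medians from -0.38 to -0.28 over the 74 genes, from -0.39 to -0.23 in complex I, from -0.27 to -0.20 in complex II, from -0.37 to -0.24 in complex III, from -0.27 to -0.14 in complex IV and from -0.46 to -0.37 in complex V. Without the filter complex IV was at -0.0947, over 17 genes in place of 12.

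Some single genes changed direction. Between the groups, Sdhc was at -0.0345 and Uqcrq at 0.0409 with averaged probe sets, and Sdhb was at 0.0194 and Uqcrq at 0.0067 under quantile normalization. Leaving out 1 array gave ranges that crossed 0 for Sdhd (-0.30 to 0.17), Sdhb (-0.15 to 0.0535), Uqcrb (-0.28 to 0.0298), Uqcrq (-0.12 to 0.0554), Cox6a1 (-0.17 to 0.0304), Cox6b1 (-0.29 to 0.0568) and Atp5md (-0.31 to 0.0203). Across the numbers, Sdhc was at 0.0351 and Cox8c at 0.0276 under quantile normalization, and Cox8c at 0.085 with averaged probe sets and at -0.18 to 0.022 when 1 array was left out. The cause was not tested. With 3 arrays a group and no detection calls, small differences of dim probe sets were not detectable here.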

Other observations

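Several respiratory chain genes start close to another gene on the opposite strand, and the neighbours were looked up after the values of the chain were seen. Neighbours are from the RefSeq table, and differences are number 1 minus numbers 2 and 3. The pairs named are examples, and other pairs are not listed here. Sdhd and Timm8b, which encodes a small chaperone of mitochondrial protein import, start 52 bases apart. Sdhd was at -0.64 and Timm8b at -0.26 ± 0.0816 (SE). Atp5j starts 148 bases from Gabpa, the gene of the DNA-binding GABP subunit. Atp5j was at -0.52 and Gabpa at -0.12 ± 0.0767 (SE). Ndufs3 was at -0.41 and Kbtbd4, which starts 19 bases away, at -0.04. Atp5h was at -0.38 and Kctd2, 207 bases away, at 0.09. Atp5pb was at -0.39 and its neighbour Wdr77 at -0.51, with an adjusted p of 0.0430 in limma's F test. Ndufa7 and the ribosomal protein gene Rps28 start 10 bases apart and were at 0.05 and 0.0096. Ndufb1 was at -0.25 and its neighbour Cpsf2 at -0.38, Uqcrh at -0.27 and Lrrc41 at -0.22, and Sdha at -0.15 and Ccdc127 at -0.19. Ndufa4 was at -0.49 and its neighbour Phf14 at 0.19. The difference within each pair was not tested.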
